A study of Homo sapiens with 6 samples.

Results

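The collagen chain genes are the genes whose GENCODE 44 symbol is COL, a type number, A and a chain number. They were found by symbol alone among the 19977 genes counted in each library, and 44 genes met the rule. The cells were NCRM-1, a wild type human iPSC line made with episomal vectors from CD34+ cells of cord blood, seeded as single cells and grown as aggregates in vertical wheel bioreactors for 4 days. Bulk polyadenylated RNA was sequenced from 3 samples grown in E8 medium with 10 mg/ml polyethylene glycol (PEG) and 0.1 µg/ml heparin sodium salt (HS), called PEG and HS, and from 3 samples grown in E8 alone, called Control. In both arms 50% of the medium was replaced on day 2. The labels name a single control bioreactor and a single treated bioreactor, so the vessel cannot be told apart from the medium. The p-values describe the spread between these samples, which may be technical. The treatment text of the labels describes PEG and heparin for all 6 samples, and the treatment named for each sample was followed.

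Collagens are extracellular matrix proteins built from chains that wind into a triple helix, some from copies of a single chain and others from chains of different genes in fixed proportions. Fibrillar collagens assemble into the banded fibrils of connective tissue, and network collagens form sheets, those of type IV in basement membranes. FACITs (fibril-associated collagens with interrupted triple helices) sit on the fibrils, and transmembrane collagens are anchored in the plasma membrane. Type VI collagen forms beaded filaments, and the multiplexins are basement membrane proteins carrying sugar chains. Each chain is hydroxylated and folded in the endoplasmic reticulum, then trimmed and cross-linked outside the cell. Pluripotent stem cells are epithelial and lay down basement membrane collagens, while high levels of the main fibrillar chains are typical of fibroblasts, osteoblasts and chondrocytes.

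The libraries held 26991279 to 36185138 counts on genes, and collagen genes took 0.174% to 0.179% of them in PEG and HS, against 0.181% to 0.186% in Control. Levels are given as CPM, counts per 1000000 counts of a library after scaling by TMM (trimmed mean of M values). The media were compared with the quasi-likelihood test of edgeR over all 16505 genes with at least 10 counts in total, and a gene was called at an adjusted p under 0.05. All 10 markers of pluripotent cells were above 1 CPM, of which 4 rose and 4 fell, where 25.3% of all genes tested were called. Their summed levels were 9345 to 9609 CPM in PEG and HS, against 9655 to 9852 CPM in Control. Of the 44 collagen genes, 43 were tested and 35 reached 1 CPM in at least 1 medium. COL22A1, a FACIT of tissue junctions, had 0 counts in each library, where 3 counts over the 6 libraries, 0.0157 CPM, is the limit that a count of 0 allows for counting error.

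Collagen transcripts were lower in PEG and HS more often than higher. Of the 43 genes tested, 12 fell, 5 rose and 26 were not called. Among all genes tested, 25.3% were called, 13.1% lower and 12.2% higher, while the shares of the collagen genes were 39.5%, 27.9% and 11.6%. Among tested genes of at least 1 CPM the share called was 29.6%, and all 17 called collagen genes were among the 35 at that level. The CPM of the media did not overlap in 23 collagen genes, 17 lower and 6 higher, against 39.3% of all genes tested, 19.8% lower and 19.5% higher. All 17 called collagen genes were among these 23. The median log2 fold change of the 43 genes was -0.12, that of all genes tested 0.0031, and the median absolute values were 0.22 and 0.12. The summed level of the 44 genes was 1759 ± 23.1 CPM in PEG and HS, against 1851 ± 28.7 CPM in Control (SD, n = 3). COL1A1 alone, at 60.1 CPM in PEG and HS and 120 in Control, made up most of this difference. The sum therefore does not show a fall shared by the 44 genes. Most of the changes were small, since 13 of the 17 called genes changed by less than 1.5-fold. In bulk RNA, fewer cells of a type and less RNA per cell cannot be told apart.

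**Figure D1:**
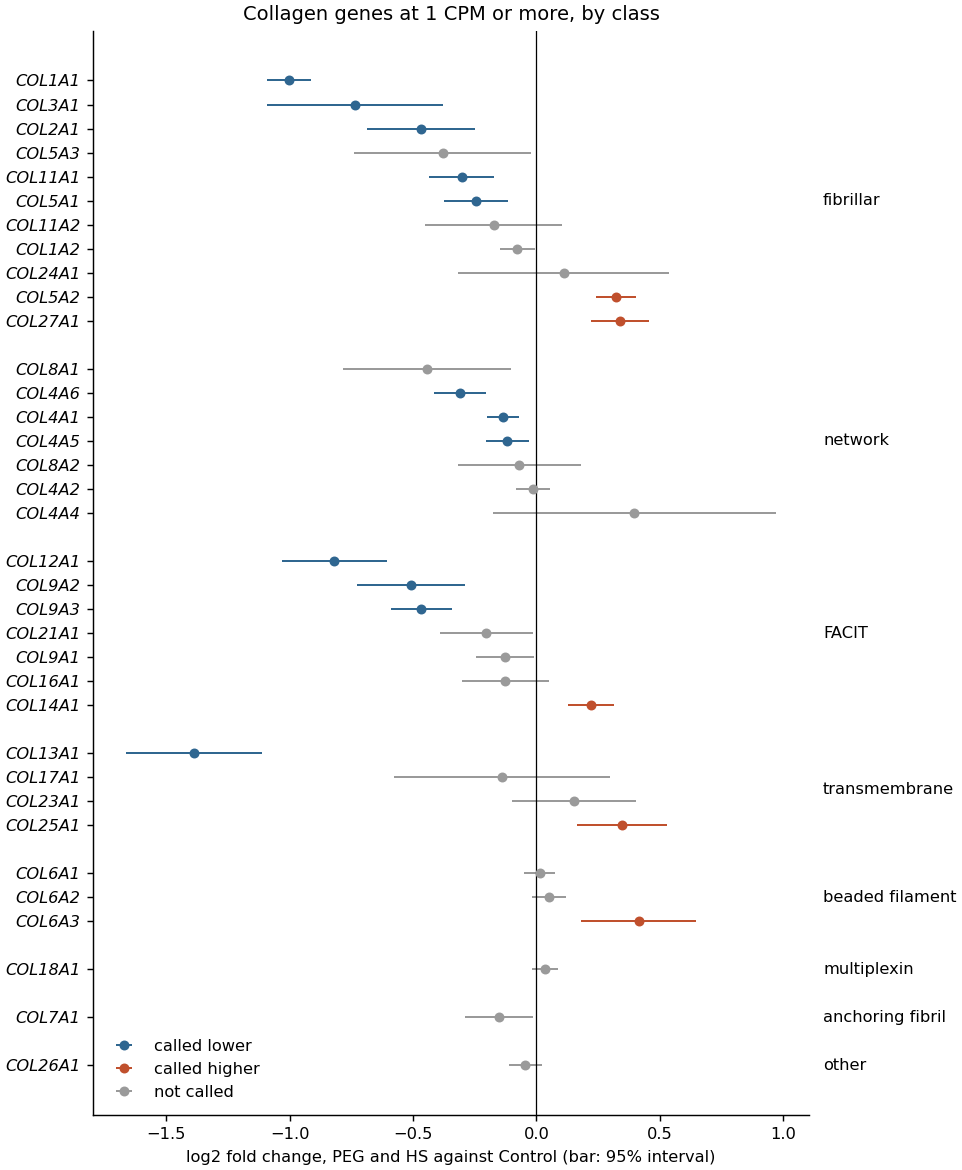
Log2 fold change of PEG and HS against Control (horizontal axis) for the 35 collagen genes of at least 1 CPM, grouped by class, with 95% intervals as bars; blue points fell, red points rose and grey points were not called at an adjusted p under 0.05. COL13A1 at -1.39 and COL1A1 at -1.0 lie farthest left, and the 5 genes called higher lie between 0.22 and 0.41.

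Levels between genes were compared per length, as CPM per kb of exon in the annotation. The 5 genes highest in Control were COL6A1 at 48.4 ± 1.7 CPM per kb (SD, n = 3), COL18A1 at 45.9 ± 0.41, COL26A1 at 29.6 ± 0.60, COL6A2 at 20.2 ± 0.40 and COL1A1 at 13.3 ± 0.58. Together they held 66.0% of the collagen signal per length. The libraries of neighbours in this order did not overlap, but COL18A1 came before COL6A1 when the length of the Ensembl canonical transcript was used (71.8 and 63.8 CPM per kb), and COL4A2 at 23.8 then took the place of COL1A1 among the 5 highest. Of these 5 genes COL1A1 was the only gene called between the media.

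COL6A1 and COL6A2 encode chains of the beaded filament collagen VI and lie on the plus strand of chromosome 21 with 93.1 kb between them. COL6A1 (ENSG00000142156, chr21:45981770-46005050, GRCh38) measured 272, 274 and 266 CPM in PEG and HS, against 259, 277 and 268 in Control. The media overlapped, with a log2 fold change of 0.01 (SE 0.029, 95% interval -0.05 to 0.08, adjusted p = 0.791). COL6A2 (ENSG00000142173, chr21:46098112-46132848) measured 111, 115 and 109 CPM in PEG and HS, against 107, 110 and 107 in Control, again with overlap, and its log2 fold change was 0.05 (SE 0.032, 95% interval -0.02 to 0.12, adjusted p = 0.284). The intervals of both genes reach no farther than 0.12 on the log2 scale.

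COL18A1, whose product is a basement membrane heparan sulfate proteoglycan that releases endostatin, measured 393, 404 and 396 CPM in PEG and HS, against 391, 390 and 384 in Control. All 3 samples with PEG and HS were above all Control samples, but the difference of 0.03 (log2, SE 0.025, 95% interval -0.02 to 0.09) did not pass the test (adjusted p = 0.360). Exons of COL18A1 (ENSG00000182871, chr21:45405165-45513720) overlap those of SLC19A1 on the opposite strand over 1563 bases, 18.5% of its exon length, and whether the counting used strand is not given in the sources used here. COL15A1, the other multiplexin gene, had 44 counts in all, and its log2 fold change was -1.73 (SE 0.68, adjusted p = 0.0786). It was called without PEG and HS replicate 2 (-2.92, adjusted p = 0.0188) or without Control replicate 2 (-2.10, adjusted p = 0.0371). COL26A1, a secreted collagen outside the main classes, measured 89.3, 88.5 and 88.7 CPM in PEG and HS, against 93.7, 90.0 and 91.4 in Control. Its samples did not overlap, and its log2 fold change of -0.04 (SE 0.031, 95% interval -0.11 to 0.02) was not called (adjusted p = 0.324).

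The summed level of the fibrillar chain genes was lower in PEG and HS, and COL1A1 made up the whole difference of the means. Their summed CPM was 347, 358 and 345 in PEG and HS, against 425, 413 and 392 in Control, 350.0 ± 6.87 against 410 ± 16.5 (SD, n = 3), with no test made on the sum. Without COL1A1 the other 10 genes summed to 289.9 ± 4.36 CPM in PEG and HS and 289.9 ± 14 in Control (SD, n = 3), a sum chosen after seeing the data. Its equal means do not show unchanged genes, since higher COL5A2 and COL27A1 offset lower levels of others. All 11 fibrillar genes were tested. COL1A1, COL3A1, COL2A1, COL11A1 and COL5A1 fell, COL5A2 and COL27A1 rose, and 4 were not called. The shares were 45.5% lower and 18.2% higher, against 13.1% and 12.2% of all genes tested.

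COL1A1 encodes the chain that takes more of the places in the type I collagen helix, the main protein of bone, skin and tendon. Its level was 57.4, 63.3 and 59.5 CPM in PEG and HS, against 120, 126 and 115 CPM in Control. Every sample with PEG and HS lay at about the same level, far below the lowest Control sample. COL1A1 (ENSG00000108821, chr17:50184101-50201632, minus strand) was 2.0-fold lower with PEG and HS, at 60.1 ± 3.02 against 120 ± 5.23 CPM (SD, n = 3), with a log2 fold change of -1.0 (SE 0.041, adjusted p = 9.67e-11). Its partner in the same helix, COL1A2 on chromosome 7, measured 97.9, 98.2 and 99.0 CPM in PEG and HS, against 107, 105 and 99.9 in Control. COL1A2 was not called, with a log2 fold change of -0.08 (SE 0.033, 95% interval -0.15 to -0.01, adjusted p = 0.0989). Without Control replicate 3 it was called, at -0.11 with an adjusted p of 0.0341.

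COL3A1 encodes the single chain of type III collagen, abundant in vessels and loose connective tissue. It measured 7.68, 9.59 and 9.34 CPM in PEG and HS, against 17.6, 17.2 and 9.87 in Control. Control replicate 3 lay just above the highest sample with PEG and HS, and the other Control samples stood well apart from it. COL3A1 (ENSG00000168542, chr2:188974373-189012746, plus strand) fell by 0.74 on the log2 scale (SE 0.167, adjusted p = 0.00428) and by 0.98 without Control replicate 3 (adjusted p = 3.68e-06). The summed level of 9 mesenchymal markers, described with the other markers, had the same order among the Control samples, at 24.9, 24.8 and 18.4 CPM, and its part in the result was not tested.

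COL2A1, the chain of cartilage type II collagen, measured 6.91, 7.47 and 7.89 CPM in PEG and HS, against 11.6, 10.7 and 8.65 in Control. The samples did not overlap, although Control replicate 3 was the nearest to PEG and HS, and the log2 fold change was -0.47 (SE 0.102, adjusted p = 0.00325). COL11A1, a type XI chain that helps to start fibrils in cartilage, measured 18.8, 17.1 and 19.5 CPM against 24.1, 21.8 and 22.7. It was lower in each sample with PEG and HS, with a log2 fold change of -0.30 (SE 0.062, adjusted p = 0.00195). COL5A1, a type V chain that limits the thickness of type I fibrils, measured 25.0, 28.7 and 27.2 CPM against 33.0, 33.5 and 29.4. PEG and HS replicate 2 came close to Control replicate 3 without overlap, and the log2 fold change was -0.25 (SE 0.061, adjusted p = 0.00778). Without PEG and HS replicate 1 COL5A1 was at -0.19 and lost its call (adjusted p = 0.0528).

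COL5A2, whose product joins that of COL5A1 in type V collagen, went the other way. Its level was 60.4, 60.0 and 58.3 CPM in PEG and HS, against 48.5, 45.6 and 48.7 in Control, with no overlap and little spread within either medium. COL5A2 (ENSG00000204262, chr2:189031898-189225312, minus strand) rose by 0.32 on the log2 scale (SE 0.038, adjusted p = 1.45e-05). COL27A1, a fibrillar chain of cartilage, measured 63.2, 65.6 and 57.4 CPM in PEG and HS, against 53.1, 45.5 and 48.9 in Control. It was higher in each sample with PEG and HS, and its log2 fold change was 0.34 (SE 0.056, adjusted p = 3.41e-04). The fibrillar genes that were not called were COL1A2, COL5A3 at -0.38 (adjusted p = 0.117), COL11A2 at -0.17 (adjusted p = 0.371) and COL24A1 at 0.11 (adjusted p = 0.742). COL5A3 measured 1.60 to 1.93 CPM in PEG and HS, against 2.13 to 2.48 in Control, so its samples did not overlap even though it did not pass the test.

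**Figure D2:**
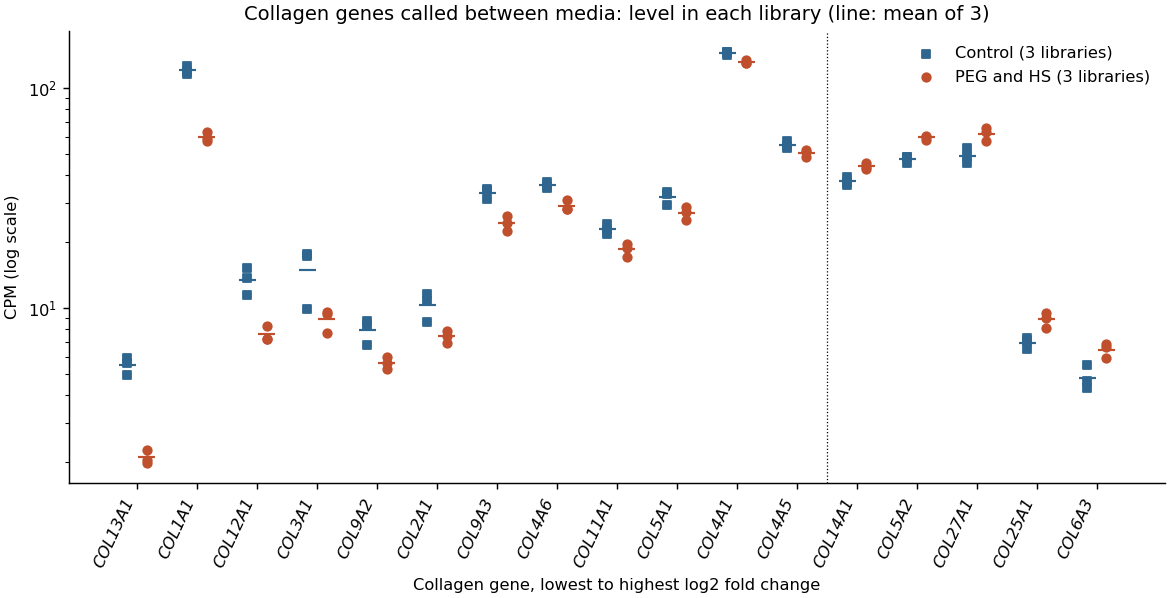
Level in CPM (vertical axis, log scale) of each library for the 17 collagen genes called between the media, ordered by log2 fold change, with Control as blue squares, PEG and HS as red circles and the mean of 3 libraries as a line; the dotted line separates the 12 genes that fell from the 5 that rose. The media do not overlap in any of them, and Control replicate 3 of COL3A1 lies at 9.87 CPM, close to the highest sample with PEG and HS at 9.59.

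Among the 9 FACITs tested, 3 fell, 1 rose and 5 were not called, where 13.1% of all genes tested fell and 12.2% rose. The summed level of the FACITs was 125 ± 3.37 CPM in PEG and HS, against 140 ± 1.83 CPM in Control (SD, n = 3). COL12A1, whose product lies along type I fibrils, measured 7.21, 7.25 and 8.27 CPM in PEG and HS, against 13.7, 15.2 and 11.4 in Control. The media did not overlap. COL12A1 (ENSG00000111799, chr6:75084326-75206267, minus strand) was 1.76-fold lower with PEG and HS, with a log2 fold change of -0.82 (SE 0.100, adjusted p = 1.90e-05). COL14A1, a related FACIT of tendon and skin fibrils, measured 43.7, 45.6 and 42.6 CPM in PEG and HS, against 36.3, 37.5 and 39.2 in Control. It was the FACIT gene that rose, by 0.22 on the log2 scale (SE 0.044, adjusted p = 0.00164), with no overlap.

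The chains of type IX collagen, which coats type II fibrils in cartilage, come from COL9A1, COL9A2 and COL9A3 on different chromosomes. COL9A3 measured 24.3, 26.2 and 22.5 CPM in PEG and HS, against 31.4, 34.6 and 34.2 in Control. It fell without overlap, with a log2 fold change of -0.47 (SE 0.059, adjusted p = 2.58e-05). A stretch of 155 bases of its exons, 3.20% of their length, overlaps TCFL5 on the opposite strand. COL9A2 measured 5.96, 5.63 and 5.29 CPM against 6.78, 8.74 and 8.34, and also fell with no overlap, by 0.51 on the log2 scale (SE 0.102, adjusted p = 0.00179). COL9A1 measured 24.8, 23.6 and 23.9 CPM against 28.4, 25.1 and 25.9. Its samples did not overlap either, but the change of -0.13 (95% interval -0.25 to -0.01) did not pass the test (adjusted p = 0.105). Of the remaining FACIT genes, COL21A1 was at -0.20 (adjusted p = 0.114) and COL16A1 at -0.13 (adjusted p = 0.297), while COL19A1 and COL20A1 had 12 and 93 counts in all.

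The basement membrane chains of type IV collagen are encoded in head-to-head pairs, in which both genes start within a short stretch and are read outwards from it. Starts are those of RefSeq (GRCh38.p14), which had a promoter entry for 32 of the 44 collagen genes (not for COL1A1, COL1A2, COL2A1, COL3A1, COL5A2, COL6A1, COL6A5, COL8A1, COL9A3, COL14A1, COL20A1 and COL22A1). Between COL4A1 on the minus strand and COL4A2 on the plus strand lie 126 bases, chr13:110307158-110307283, shown on the plus strand since a single stretch serves a gene that fell and a gene that was not called. COL4A6 and COL4A5 are 379 bases apart on the X chromosome, and the 250 bases before the start of COL4A5, chrX:108439588-108439837, lie within that gap. Capitals mark CCAAT (or ATTGG, the same letters on the other strand) and GGGCGG.
COL4A1-COL4A2: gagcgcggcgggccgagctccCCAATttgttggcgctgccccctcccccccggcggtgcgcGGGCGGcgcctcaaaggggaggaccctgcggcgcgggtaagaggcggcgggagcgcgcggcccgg
COL4A5: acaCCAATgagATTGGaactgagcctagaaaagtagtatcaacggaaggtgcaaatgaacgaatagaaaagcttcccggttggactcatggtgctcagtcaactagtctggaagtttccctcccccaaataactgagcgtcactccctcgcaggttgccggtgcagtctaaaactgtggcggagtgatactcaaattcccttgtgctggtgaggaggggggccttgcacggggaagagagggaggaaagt

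GC made up 80.2% of the first stretch and 51.2% of the second. On either strand CCAAT was found in 9 of the 32 collagen promoters (28.1%) and in 32.0% of the 35116 promoters of all genes, taken as the 250 bases before each start. GGGCGG was found in 18 of 32 (56.2%) and in 42.6% of all. TATAAA was found in 5 of 32 (15.6%) and in 10.7% of all. COL4A1 and COL4A2 share their stretch, and the windows of COL4A5 and COL4A6 overlap at the CCAAT letters of COL4A5, so in both pairs the same letters count for both genes. A match is a description and not a binding site.

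COL4A1, the most general chain of basement membranes together with COL4A2, measured 129, 130 and 134 CPM in PEG and HS, against 141, 146 and 145 in Control. It fell without overlap, but by a small step, with a log2 fold change of -0.14 (SE 0.029, adjusted p = 0.00313). COL4A2 measured 153, 152 and 150 CPM in PEG and HS, against 160, 152 and 148 in Control. The samples overlapped and the log2 fold change was -0.01 (SE 0.032, 95% interval -0.08 to 0.06, adjusted p = 0.814). COL4A6 measured 28.2, 31 and 28.1 CPM in PEG and HS, against 35.8, 37.2 and 35.1 in Control. It fell by 0.31 on the log2 scale (SE 0.049, adjusted p = 2.36e-04) without overlap. COL4A5, a chain mutated in Alport syndrome, had the smallest called change, at -0.12 (SE 0.041, adjusted p = 0.0470), with 48.5 to 52.3 CPM in PEG and HS, against 53.4 to 57.2 in Control. It lost its call with DESeq2, with library size alone and without PEG and HS replicate 2 or 3 or Control replicate 1 or 3, where its adjusted p reached 0.194. The third pair, COL4A3 and COL4A4, which encode chains of the kidney filter, are 418 bases apart on chromosome 2 and were low, with 62 and 264 counts in all, and neither was called.

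The 9 network genes held 3 that fell and 6 that were not called, where 13.1% of all genes tested fell and 12.2% rose. None rose by edgeR or limma-voom, nor did any of the 7 to which DESeq2 gave an adjusted p, and 0 were higher at an unadjusted edgeR p under 0.05. In so few genes, the lack of a rise is near the 12.2% of all genes tested. Their summed CPM was 373 to 376 in PEG and HS, against 395 to 409 in Control. COL8A1, a chain of the short-chain networks of vessels and cornea, measured 5.52, 5.66 and 6.18 CPM in PEG and HS, against 9.38, 9.08 and 5.40 in Control. Control replicate 3 lay below every sample with PEG and HS, and the log2 fold change of -0.44 was not called by edgeR (SE 0.159, adjusted p = 0.0548) and was called by DESeq2 (adjusted p = 0.0360), with upper quartile normalization and with each of the other filters on low counts. Without that library it was -0.67 in edgeR with an adjusted p of 1.66e-04. Its partner COL8A2 was at -0.07 (95% interval -0.32 to 0.18, adjusted p = 0.717), and COL10A1, the chain of hypertrophic cartilage, had 49 counts in all.

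The transmembrane class held the gene with the largest change of all 17 called. COL13A1, whose product sits at cell contacts and at the neuromuscular junction, measured 2.25, 1.98 and 2.04 CPM in PEG and HS, against 5.63, 5.94 and 4.93 in Control. The highest sample with PEG and HS lay far below the lowest Control sample. COL13A1 (ENSG00000197467, chr10:69801880-69964275, plus strand) was 2.62-fold lower with PEG and HS, at 2.09 ± 0.143 against 5.50 ± 0.517 CPM (SD, n = 3), with a log2 fold change of -1.39 (SE 0.129, adjusted p = 1.03e-06). The 250 bases before its RefSeq start, chr10:69801656-69801905 on the plus strand, are shown because of that change, with TATAAA at position -236 from the start in capitals.
COL13A1: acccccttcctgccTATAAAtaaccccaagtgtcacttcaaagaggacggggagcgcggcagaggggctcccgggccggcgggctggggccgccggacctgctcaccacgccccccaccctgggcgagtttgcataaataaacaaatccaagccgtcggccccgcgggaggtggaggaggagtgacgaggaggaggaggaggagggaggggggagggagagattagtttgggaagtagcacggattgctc

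COL25A1, a transmembrane chain expressed mainly by neurons, measured 8.96, 9.52 and 8.13 CPM in PEG and HS, against 6.49, 7.08 and 7.26 in Control. It rose without overlap, with a log2 fold change of 0.35 (SE 0.085, adjusted p = 0.00763). COL17A1 of the hemidesmosome was at -0.14 (adjusted p = 0.678) and COL23A1 at 0.15 (adjusted p = 0.390), and neither was called. The summed CPM of the class was 17.6 to 18.0 in PEG and HS, against 18.1 to 20.2 in Control, and the sign of this small difference turned when levels were summed per length.

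COL6A3, the longest chain of collagen VI, measured 5.90, 6.65 and 6.86 CPM in PEG and HS, against 4.34, 4.65 and 5.49 in Control. It rose without overlap, by 0.41 on the log2 scale (SE 0.108, adjusted p = 0.0109), where COL6A1 and COL6A2 were not called. COL6A5 and COL6A6, which encode alternative chains of the same filament, had 16 and 83 counts in all. COL7A1, the chain of the anchoring fibrils under skin, measured 14.7 to 16.4 CPM in PEG and HS, against 16.1 to 17.6 in Control and was not called (log2 fold change -0.15, adjusted p = 0.107). COL28A1 had 91 counts in all. The 8 tested genes under 1 CPM had log2 fold changes with standard errors of 0.35 to 0.97, so only large changes could have been seen in them, and none of the 8 was called by edgeR or limma-voom, nor any of the 3 to which DESeq2 gave an adjusted p (COL15A1 alone had an unadjusted edgeR p under 0.05).

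Chains that enter the same helix, and neighbouring genes, were then compared as ratios of CPM per kb within each library. The size of a ratio depends on the exon length used, but the shift between media does not. With 3 samples against 3 the exact two-sided permutation test cannot go below p = 0.1, which is 0.217 after adjustment over the 13 pairs, so none could pass. Ratios did not overlap between media in 6 of the 13 pairs. This count is a description, since no share over all gene pairs was computed to set beside it. Among single genes tested, the CPM of 39.3% did not overlap.

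The ratio of COL1A1 to COL1A2 was 0.704, 0.774 and 0.721 in PEG and HS, against 1.34, 1.44 and 1.38 in Control. Every Control sample was above every sample with PEG and HS (exact permutation p = 0.1). Whether COL1A1 exceeded COL1A2 in Control depends on the length used, since per kb of canonical transcript the ratio was 0.503, 0.553 and 0.515 in PEG and HS, against 0.958, 1.03 and 0.988 in Control. The ratio of COL5A1 to COL5A2 was 0.271, 0.313 and 0.306 in PEG and HS, against 0.445, 0.482 and 0.396 in Control, also without overlap (exact permutation p = 0.1). COL6A1 exceeded COL6A3 by 151 to 179 times per length in PEG and HS and by 190 to 232 times in Control. For type IX, the ratio of COL9A1 to COL9A3 was 0.424 to 0.498 in PEG and HS, against 0.339 to 0.423 in Control, and that of COL9A2 to COL9A3 overlapped, at 0.266 ± 0.018 against 0.273 ± 0.022 (SD, n = 3, exact permutation p = 0.7).

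In the type IV pairs the media overlapped for COL4A1 to COL4A2, at 1.11, 1.12 and 1.18 in PEG and HS, against 1.16, 1.26 and 1.29 in Control (exact permutation p = 0.2). For COL4A5 to COL4A6 the ratio was higher in each sample with PEG and HS, at 1.45, 1.30 and 1.35 against 1.25, 1.12 and 1.22. COL6A1 to COL6A2 overlapped, at 2.28 to 2.37 in PEG and HS, against 2.34 to 2.42 in Control (exact permutation p = 0.3). COL3A1 and COL5A2 are neighbours on chromosome 2, their ends 19.2 kb apart and read towards each other, and the former fell where the latter rose. Their ratio was 0.138 to 0.173 in PEG and HS, against 0.219 to 0.409 in Control. The remaining pairs, COL9A1 to COL9A2, COL11A1 to COL11A2, COL8A1 to COL8A2 and COL4A3 to COL4A4, overlapped between media (exact permutation p of 0.2 to 0.5). Some of the 13 pairs share a gene.

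**Figure D3:**
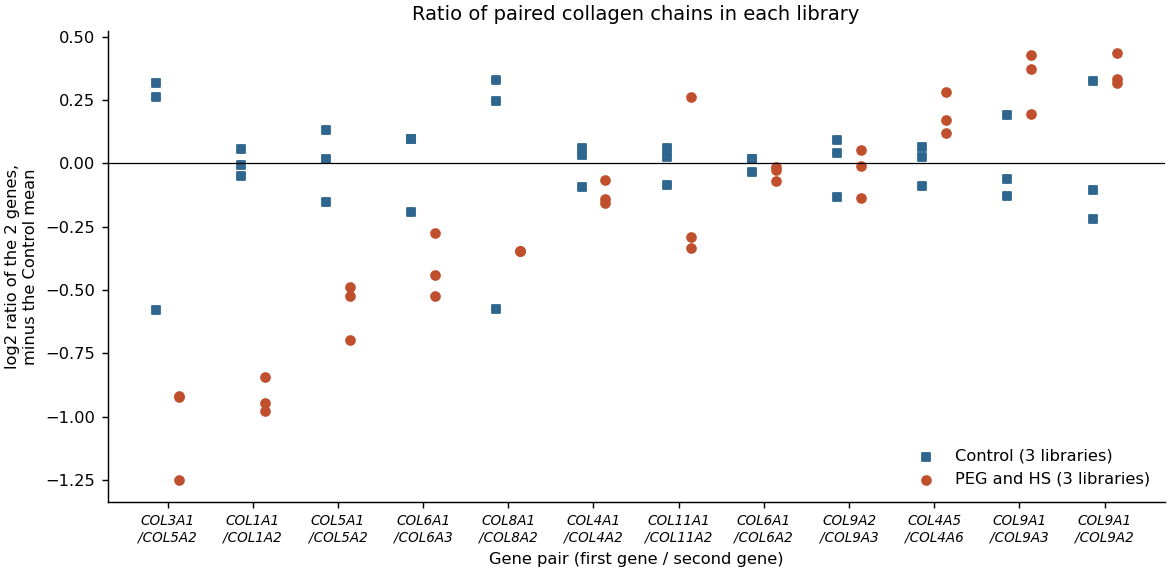
Log2 ratio of the CPM per kb of 2 collagen genes in each library, minus the mean of the Control libraries (vertical axis), for the 12 of 13 pairs in which both genes reach 1 CPM; Control is shown as blue squares and PEG and HS as red circles. The ratio of COL1A1 to COL1A2 lies 0.92 lower in PEG and HS with little spread, while that of COL3A1 to COL5A2 has Control libraries spread widely.

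Genes listed as markers of other cell types were detected, and some moved with the media. Among all genes tested 25.3% were called, 13.1% lower and 12.2% higher. Of 10 fibroblast and mesenchymal markers, 9 were tested, THY1 rose, LUM and DCN fell and 6 were not called. THY1, which pluripotent cells also express, was at 408 ± 13 CPM in PEG and HS, against 264 ± 7.3 in Control (SD, n = 3). Without THY1 the summed level of the list was 17.1 to 17.9 CPM in PEG and HS, against 18.4 to 24.9 in Control. Not each marker had Control replicate 3 nearest to PEG and HS. S100A4 was at 2.41, 2.62 and 2.69 CPM in Control, against 1.78, 2.12 and 2.07 in PEG and HS. In the sum without THY1 Control replicate 3 was the Control sample nearest to PEG and HS, and also in COL3A1 and COL8A1. DCN, a proteoglycan that binds collagen fibrils, showed the same order, at 1.57, 1.77 and 2.16 CPM in PEG and HS, against 4.30, 4.25 and 1.88 in Control (log2 fold change -0.90, adjusted p = 0.0181), so that its samples overlapped although it was called. LUM was at 0.83 to 1.09 CPM against 1.64 to 2.93 (log2 fold change -1.19, adjusted p = 0.00190), and FAP had 3 counts in all. No marker of the list was at 0 in all libraries, and the part of such cells in the collagen differences was not tested.

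The lists that follow stand beside the same 25.3% called among all genes tested. Of 10 markers of chondrocytes and notochord, SOX5 and ACAN fell and 8 were not called, with summed levels of 25.0 to 27 CPM in PEG and HS, against 29.0 to 30.4 in Control. Neuroectoderm markers moved more, with 7 of 10 lower and SIX6 higher, and summed levels of 49.9 to 56.1 CPM against 143 to 148. Neural crest markers had 3 higher (FOXD3, ETS1 and NGFR) and 2 lower (TFAP2A and SOX10) of 8, with sums of 122 to 125 CPM against 111 to 117. TFAP2A was at 0.60 CPM in PEG and HS, against 6.00 in Control (log2 fold change -3.30, adjusted p = 9.84e-09). Amnion and trophectoderm markers had 3 lower of 7 tested (17.7 to 19.5 against 28.0 to 30.2). Mesoderm and primitive streak markers had 2 lower of 7 tested (5.91 to 6.12 against 6.40 to 7.84), and endothelial markers 2 higher and 2 lower of 6 (74.8 to 76.2 against 66.2 to 69.7). None of the 6 endoderm markers tested was called by edgeR or limma-voom, nor any of the 5 to which DESeq2 gave an adjusted p (4.25 to 4.95 CPM against 5.79 to 6.97), and 2 had an unadjusted edgeR p under 0.05. Single genes carried much of some sums. Control means were 79.4 CPM for OTX2 (neuroectoderm), 49.6 for ETS1 and 41.6 for FOXD3 (neural crest) and 52.4 for KDR (endothelial). Other lists were carried in the same way. SOX9 (chondrocyte and notochord, not called) was at 19.3 CPM in Control, TFAP2C (amnion and trophectoderm) at 18.3 and TBX6 (mesoderm and primitive streak) at 4.19. The sum of a list therefore does not by itself show that its cell type was present. No marker of these lists was at 0 in all libraries, and the part of these markers in the collagen differences was not tested either.

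Of 21 genes that act on collagen chains inside the cell, in hydroxylation, glycosylation, folding and export, 8 rose, 3 fell and 10 were not called, where 12.2% of all genes tested rose and 13.1% fell. Calls for FKBP10, PLOD2 and PLOD3, all higher, were lost without PEG and HS replicate 1 or Control replicate 1, which left 5 that rose. DESeq2 and upper quartile factors each left 6. FKBP14, an isomerase of the endoplasmic reticulum, measured 21.8, 20.5 and 21.2 CPM in PEG and HS, against 16.5, 16.1 and 16 in Control. It was higher in each sample with PEG and HS, with a log2 fold change of 0.39 (SE 0.054, adjusted p = 6.84e-05). P4HA1, the catalytic chain of prolyl hydroxylase, measured 33.1, 31.4 and 31.3 CPM against 25.1, 27.2 and 27.7 and rose by 0.26 (SE 0.050, adjusted p = 0.00142). SERPINH1, the chaperone specific to collagen, measured 627, 640 and 637 CPM against 554, 553 and 535. It rose by 0.21 on the log2 scale (SE 0.025, adjusted p = 1.26e-05). The genes that fell were P3H2 (-0.47, adjusted p = 1.18e-05), P3H3 (-0.17, adjusted p = 0.0104) and CRTAP (-0.16, adjusted p = 7.17e-04), all of the prolyl 3-hydroxylase family or its complexes. The family did not fall as a whole. P3H1 rose by 0.195 (adjusted p = 0.00292) without overlap, and P3H4 was not called (0.08, adjusted p = 0.199).

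Of 14 genes that trim or cross-link collagen outside the cell, 5 fell, 1 rose and 8 were not called, where 13.1% of all genes tested fell and 12.2% rose. The median log2 fold change of the list was -0.04. ADAMTS2, the protease that removes the amino-terminal propeptide of fibrillar procollagens, measured 4.66, 5.17 and 4.79 CPM in PEG and HS, against 6.93, 8.50 and 7.93 in Control. The media were well apart (log2 fold change -0.68, SE 0.098, adjusted p = 9.17e-05). LOXL2, a lysyl oxidase that cross-links collagen, measured 42.1, 43.4 and 44.1 CPM against 56.0, 57.1 and 56.3, a fall of 0.39 on the log2 scale (adjusted p = 1.26e-06). LOXL1 of the same family fell by 0.32 (adjusted p = 0.00653), and TLL2, a protease related to the procollagen C-proteinase, rose by 0.47 (SE 0.100, adjusted p = 0.00268).

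Of 9 collagen receptor genes, 8 were tested, 2 rose, 1 fell and 5 were not called, where 12.2% of all genes tested rose and 13.1% fell. LAIR1 had 8 counts in all. DDR1, a receptor tyrosine kinase that binds collagen, measured 206, 210 and 210 CPM in PEG and HS, against 285, 289 and 288 in Control. Spread within each medium was small beside that gap, and DDR1 fell by 0.46 on the log2 scale (SE 0.026, adjusted p = 2.85e-09). ITGB1, the beta chain shared by the collagen-binding integrins and many others, measured 423, 410 and 422 CPM against 350, 344 and 352 and rose by 0.26 (SE 0.026, adjusted p = 1.84e-06). ITGA2, which pairs with it to bind collagen, rose by 0.23 (SE 0.071, adjusted p = 0.0246), and lost its call with DESeq2 and without PEG and HS replicate 1 or Control replicate 1, where its adjusted p reached 0.132.

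**Figure D4:**
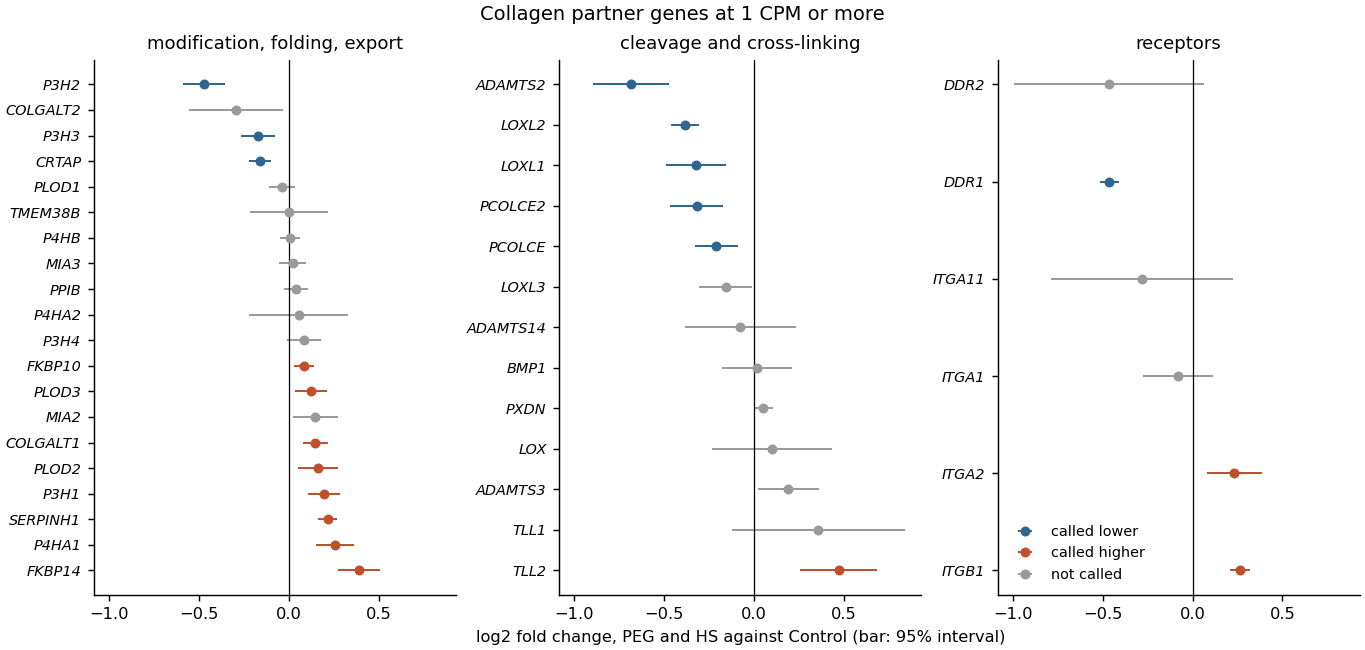
Log2 fold change of PEG and HS against Control (horizontal axis) with 95% intervals for the genes of at least 1 CPM in 3 groups of collagen partners: modification, folding and export (left), cleavage and cross-linking (middle) and receptors (right). Red points rose, blue points fell and grey points were not called; the called genes run from P3H2 at -0.47 to FKBP14 at 0.39 in the left panel and from ADAMTS2 at -0.68 to TLL2 at 0.47 in the middle panel.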

How the data were processed

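The authors prepared stranded libraries from polyadenylated RNA of 6 samples, trimmed the reads with Trim Galore 0.6.7, mapped them to GRCh38 with STAR 2.6.1 and tested with DESeq2. They deposited raw counts per Ensembl gene, a table for each sample, without a filter on low counts. The tool that counted reads, its strand setting, how it handled reads with several locations and the annotation release are not given in the sources used here. Of the 19977 identifiers, 19916 matched GENCODE 44, which gave symbols, coordinates and exon lengths. Each collagen gene shared at most 3.59% of its transcript sequence, in words of 31 bases, with other genes.

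Genes with at least 10 counts in total were tested on the deposited counts in all 6 samples, 3 against 3, with edgeR 4.0.16 in R 4.3.3 (TMM, glmQLFit, glmQLFTest, no covariate) and Benjamini-Hochberg adjustment over the 16505 genes tested. Standard errors were derived from the F statistic of each gene and its log2 fold change. At a common biological coefficient of variation of 3.12%, small changes are resolved in well-counted genes and not in those with few counts. Intervals of fold changes are 95% intervals from the same fit. Sums, ratios and levels per length carry no test across genes, and ratios were compared with exact permutation tests. The fit was tested on simulated data.

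The genes, classes, partner and marker lists, tests and alternatives were chosen with earlier results of these data known. Values of each sample were given for the 5 collagen genes highest per length in Control and for called genes of at least 1 CPM (the 16 of largest change), and of each partner list the 3 called genes of largest change in each direction were named. P3H1 and P3H4 were named besides, as members of a family in which other genes fell. Genes not called were named where they were partners of a called gene or made up the rest of a class. The lists covered pluripotent, mesenchymal, chondrocyte and notochord, neuroectoderm, neural crest, mesoderm and primitive streak, endoderm, endothelial, and amnion and trophectoderm markers.

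Alternatives were DESeq2 1.42.0, limma-voom (limma 3.58.1), RLE and upper quartile factors, scaling by library size only, 3 different minimum counts, a block for the replicate number, leaving out single libraries, sums per length and, chosen after seeing the data, canonical transcript length and a fibrillar sum without COL1A1. DESeq2 gives no adjusted p to some genes of few counts. Samples with the same replicate number did not deviate together (correlations of -0.0147, 0.0278 and 0.0596), so the numbers were not used as pairs.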

Additional observations from a re-analysis of the deposited data

How the results depend on the processing

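No collagen gene changed direction while called under any alternative run. The number of collagen genes called ranged from 16 to 18 over the 15 alternatives, against 17, with 5 higher throughout. COL4A5 lost its call with library size alone (adjusted p = 0.0724), with DESeq2 (adjusted p = 0.0820) and when PEG and HS replicate 2 or 3 or Control replicate 1 or 3 was left out, and COL5A1 lost it without PEG and HS replicate 1. COL8A1 was called with upper quartile factors, with the 3 other filters, with DESeq2 (adjusted p = 0.0360) and without Control replicate 3, COL1A2 was called without Control replicate 3, and COL15A1 was called without PEG and HS replicate 2 (adjusted p = 0.0188) or Control replicate 2 (adjusted p = 0.0371). The cause was not tested. With the replicate number as a block the same 17 collagen genes were called, and 4444 genes in all against 4173; since samples share only a number, this is no paired result. Leaving out a library gave 3114 to 3674 calls over all genes. Summed per length instead of as CPM, the log2 ratio of PEG and HS to Control was -0.22 for FACIT genes (-0.17 in CPM), -0.12 for network genes (-0.10) and 0.014 for transmembrane genes (-0.087). These shifts arise because division by length weights the genes of a class differently. The fibrillar log2 ratio was -0.23 with COL1A1 and 0.00023 without it, a sum chosen after seeing the data. Of the partner genes, FKBP10, PLOD2, PLOD3 and ITGA2 lost their call under 3 to 7 of the 15 alternatives, and the other 16 called genes did not. Of the 5 genes highest per length, 4 were the same with canonical transcript length. Genes with few counts, such as the 8 tested under 1 CPM, are limited by depth.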
